A study of Homo sapiens with 2 samples.

Results

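Rb peaks were examined at the start sites of 10 genes of replication origin licensing and firing, CDC6, CDT1, ORC1, ORC6, GMNN, CDC7, DBF4, GINS2, CLSPN and WDHD1, in VCaP and LNCaP cells. A peak, a region in which the authors' peak caller found more immunoprecipitated tags than in its surroundings, was assigned to a gene when its summit lay within 3 kb of the gene's hg19 start site. The rule found 9 peaks among the 9423 of the VCaP list and 10 among the 21994 of the LNCaP list, 1 peak per gene, with no VCaP peak at ORC6. Binding of Rb, the retinoblastoma protein, had been mapped by ChIP-seq (sequencing of the DNA that an antibody against the crosslinked protein brings down) with a mouse monoclonal antibody, in 1 library per line. Each line is an established, aneuploid prostate cancer line that carries the androgen receptor, and both were used at passage 10 to 15. Both groups received the same treatment, 4 h of the androgen dihydrotestosterone (DHT) at 10 nM after 3 days in 5% charcoal-stripped serum, so the comparison is between lines and not between hormone states. Cells without DHT were not analysed here. Peak lists measure no expression, so the line labels could not be checked against marker genes.

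Before S phase, the origin recognition complex, with subunits such as ORC1 and ORC6, recruits CDC6 and CDT1, which together load the MCM helicase onto DNA. Geminin, the product of GMNN, binds CDT1 and prevents a further round of loading. The kinase CDC7 with its activating subunit DBF4 then triggers origins, upon which GINS, including the subunit GINS2, becomes part of the active helicase, while WDHD1 (also called AND-1) links the helicase to DNA polymerase alpha and CLSPN (claspin) signals from stalled forks to the checkpoint kinase CHK1. Many genes of this pathway are known targets of E2F transcription factors, which recruit Rb to promoters and are held inactive by it until cyclin-dependent kinases phosphorylate Rb.

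With 1 library per line there is no test between the lines: values describe these libraries, and the spread between cultures is not known. Depth differed, with 8691938 tags in VCaP and 3671482 in LNCaP. Intervals on tag numbers are exact 95% Poisson intervals, or exact conditional binomial intervals for a ratio. They cover counting error only, and the summit is the highest point of its peak, which raises the number chosen. Neither list was called against a control library.

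Promoter sequences of all 10 genes were found in RefSeq (GRCh38.p14), as 300 bases from 250 before to 50 after the start, with 12 entries because GMNN and CDC7 have 2 starts each. They were searched on both strands for the E2F words TTTCCCGC, TTTCGCGC, TTTGCCGC and TTTGGCGC and for the same words without their first T. An 8-letter word was present at 6 of the 10 genes, CDC6, CDT1, GMNN, CDC7, GINS2 and CLSPN, against 3.33% of all 34961 promoters of this length and 4.11% of the 22131 of protein-coding genes. A 7-letter word, contained in every 8-letter one, was present at 8 genes, with ORC1 and WDHD1 added, against 13.0% of all promoters and 16.1% of the protein-coding ones. In the 250 bases before the start alone, an 8-letter word was present at 4 genes (2.80% of all promoters) and a 7-letter word at 5 (10.9%). Counted by entry, 6 and 9 of the 12 had such words in the 300 bases, and 4 and 6 before the start. The member promoters had a median GC content of 63.5%, from 55.3 to 78.3%, and protein-coding promoters one of 62.3%. These are matches of letters in RefSeq's promoters, which were not aligned to the hg19 peaks, and ORC6 and DBF4 had none in this window.

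The sites are shown 5′ to 3′ in the direction of transcription, 30 bases each, with the matching word or overlapping words in capitals, so that their shared core can be compared:
CDC6: gccattcggaTTTGGCGCgagcgcggctgg
GMNN: ctgggtcggtTTTGGCGCgctctcacttcc
ORC1: ggccacgccgaTTGGCGCGAAgttttcttt
CDC7, upstream start: ccagagcggcgGCGGGAAgtgttgcgcagg
CDC7, downstream start: tccgacctgcgGCGGGAAAgtcgcgcgcct
CLSPN: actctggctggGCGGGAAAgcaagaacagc
WDHD1: cgagccgaagcGCGGGAAgcagctcttgtg
CDC6, GMNN and ORC1 carry TTGGCGC on the strand of the gene, and the others carry GCGGGAA, the reverse complement of TTCCCGC. With the start counted as the first base, the site of CDC6 begins at base 8 and that of WDHD1 at base 23. The CLSPN site spans the start, and the site at the upstream start of CDC7 begins 9 bases before it. The GMNN site belongs to the downstream of its 2 starts, and the upstream start had no match. CDC7 had another match at each of its starts. In GRCh38.p14 the stretches lie on the plus strand at chr17:40287876-40287905 for CDC6, chr6:24775323-24775352 for GMNN, and chr1:91500831-91500860 and chr1:91501067-91501096 for CDC7. They lie on the minus strand at chr1:52404427-52404456 for ORC1, chr1:35769965-35769994 for CLSPN and chr14:55027059-55027088 for WDHD1.

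The 3 genes of chromosome 16 are shown with the 100 bases before their start, because CDT1 and GINS2 had the widest ratio between the libraries in tags at the summit per 1000000, and ORC6 lacked a VCaP peak. Capitals again mark E2F words.
CDT1: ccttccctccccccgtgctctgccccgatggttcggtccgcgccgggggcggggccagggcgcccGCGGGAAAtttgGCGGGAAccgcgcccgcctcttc
GINS2: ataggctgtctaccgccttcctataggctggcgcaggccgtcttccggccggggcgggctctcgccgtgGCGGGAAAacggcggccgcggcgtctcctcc
ORC6: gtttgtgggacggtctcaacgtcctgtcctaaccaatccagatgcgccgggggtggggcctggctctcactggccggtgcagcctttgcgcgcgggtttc
They lie in GRCh38.p14 at chr16:88803689-88803788 on the plus strand for CDT1, chr16:85688955-85689054 on the minus strand for GINS2 and chr16:46689559-46689658 on the plus strand for ORC6. CDT1 had 2 words, beginning 35 and 23 bases before the start, and GINS2 had 1, beginning 31 bases before it. ORC6 had none. The box CCAAT, bound by NF-Y, was present in 6 of 10 genes, among them ORC6 and GINS2, against 34.6% of all promoters. The cell cycle homology words TTTGAA and TTCGAA, bound by the MuvB core of the DREAM complex, were found at DBF4 alone, against 16.3% of all promoters.

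In both lines nearly all of these genes carried an Rb peak over the start site. All 9 VCaP peaks and all 10 LNCaP peaks covered the start itself. Positions within 3 kb of a summit make up 1.95% of the effective genome size in VCaP and 4.36% in LNCaP, a baseline for any position and not for promoters, whose share was not computed for lack of an hg19 annotation. The genes had been proposed with results of these data in view, so their count is a description. Summits lay 3 to 291 bp from the start in VCaP, with a median of 35 bp, and 4 to 338 bp in LNCaP, with a median of 53.5 bp. The farthest summit inside the 3 kb limit was thus that of ORC6, 338 bp away, and the nearest one outside it was an LNCaP peak 5786 bp upstream of WDHD1, with a fold enrichment of 5.79.

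**Figure D1:**
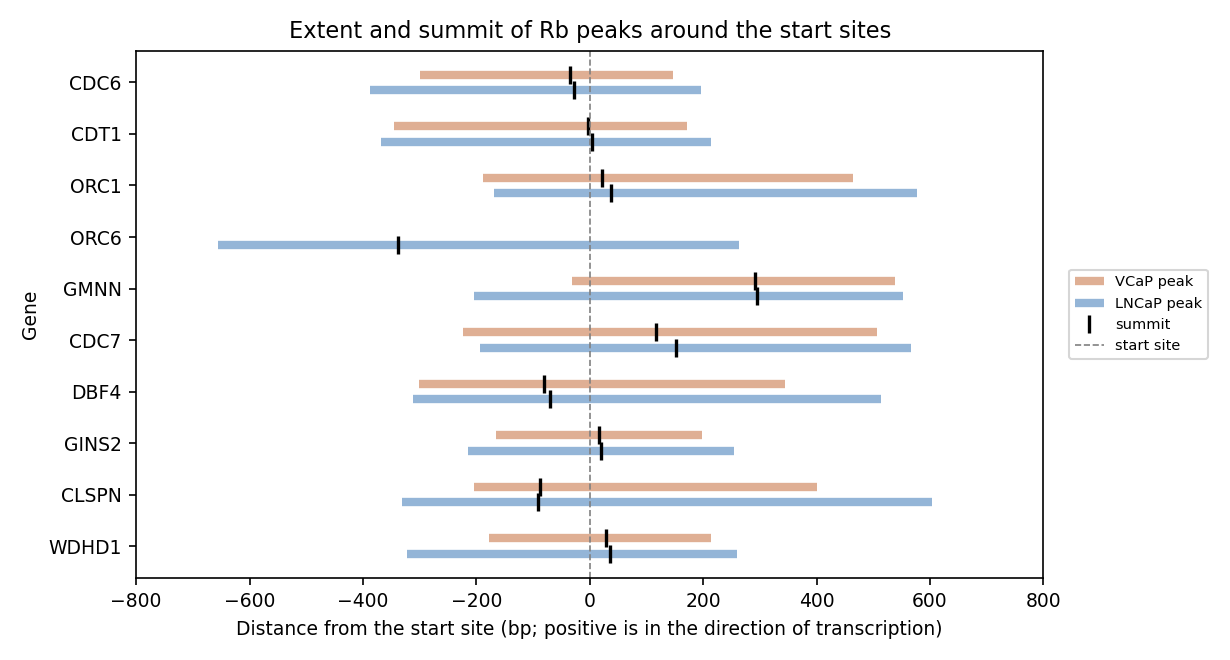
Extent of each Rb peak (bars) and its summit (black ticks) as distance in bp from the start site of its gene, with positive values in the direction of transcription. Every bar crosses the start site at 0, the summits of GMNN lie 291 and 295 bp downstream, and ORC6 has an LNCaP peak only, with its summit 338 bp upstream.

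The position of the summit relative to the start differed between genes and was nearly the same in both libraries. Summits of the 2 lines were 3 to 35 bp apart at the 9 genes with a pair, with a median of 7 bp and so within 200 bp at all 9, against 82.6% of overlapping pairs, whereas over all 6688 overlapping pairs of the lists the median was 73 bp (quartiles 30 and 155). At CDT1, the loading factor, the summit was 3 bp upstream of the start in VCaP and 4 bp downstream in LNCaP. Summits upstream of the start were also found at CDC6 (35 bp in VCaP and 28 bp in LNCaP), DBF4 (81 and 70 bp) and CLSPN (88 and 92 bp). Downstream summits were found at GINS2 (16 and 19 bp), ORC1 (22 and 37 bp), WDHD1 (29 and 35 bp), CDC7 (117 and 152 bp) and GMNN (291 and 295 bp). GMNN and CDC7, with the summits farthest downstream, are the 2 genes for which RefSeq's promoters hold a second, downstream start. Which of these starts is the hg19 start was not settled, and a link to the position of the summits was not tested. In RefSeq, ORC1, ORC6, DBF4 and WDHD1 have a protein-coding gene that starts close by on the other strand (PRPF38A, VPS35, SLC25A40 and SOCS4). CDC7 and CLSPN have a long noncoding RNA gene there (LOC105378856 and CLSPN-DT). A peak at such a start cannot be given to 1 of the 2 neighbouring genes by position.

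Peaks overlapped between the lines at 9 of 10 genes. Over the whole lists 71.2% of VCaP peaks had a partner in LNCaP, and 30.2% of LNCaP peaks had one in VCaP. The VCaP peak lay wholly inside the LNCaP peak at 7 of the 9 genes, against 55.8% of all overlapping pairs, and the LNCaP peak was the longer at all 9, by 1.04 to 1.54 times, against 85.8% of pairs. Over all pairs the median length ratio was 1.57, above the ratio at each of the 9 genes. VCaP peaks at these genes were 364 to 732 bp long, with a median of 570 bp against 313 bp over the list, and LNCaP peaks 470 to 935 bp, with a median of 752 bp against 395 bp.

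By fold enrichment, the caller's ratio of tags at the summit to the local background of the same library, most of these peaks stood above the 90th percentile of their list. The median was 9.46 at the 9 genes in VCaP, against 5.51 over the list, and 13.2 at the 10 genes in LNCaP, against 6.00. A fold of at least 10 was reached by 3 genes in VCaP (GMNN, CDC7 and WDHD1), against 3.32% of all VCaP peaks, and by 9 in LNCaP (all but ORC6), against 8.02% of all LNCaP peaks. In VCaP, 7 of 9 peaks were above the 90th percentile by fold, and in LNCaP 9 of 10. The exceptions were ORC1 and CLSPN in VCaP, at percentiles 85.5 and 80.3, and ORC6 in LNCaP, at 55.8. By pileup, GINS2, CDT1, CLSPN and ORC1 were below the 90th percentile in VCaP, at 49.4, 70.1, 81.7 and 84.4. In LNCaP only ORC6 was, at 67.2.

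**Figure D2:**
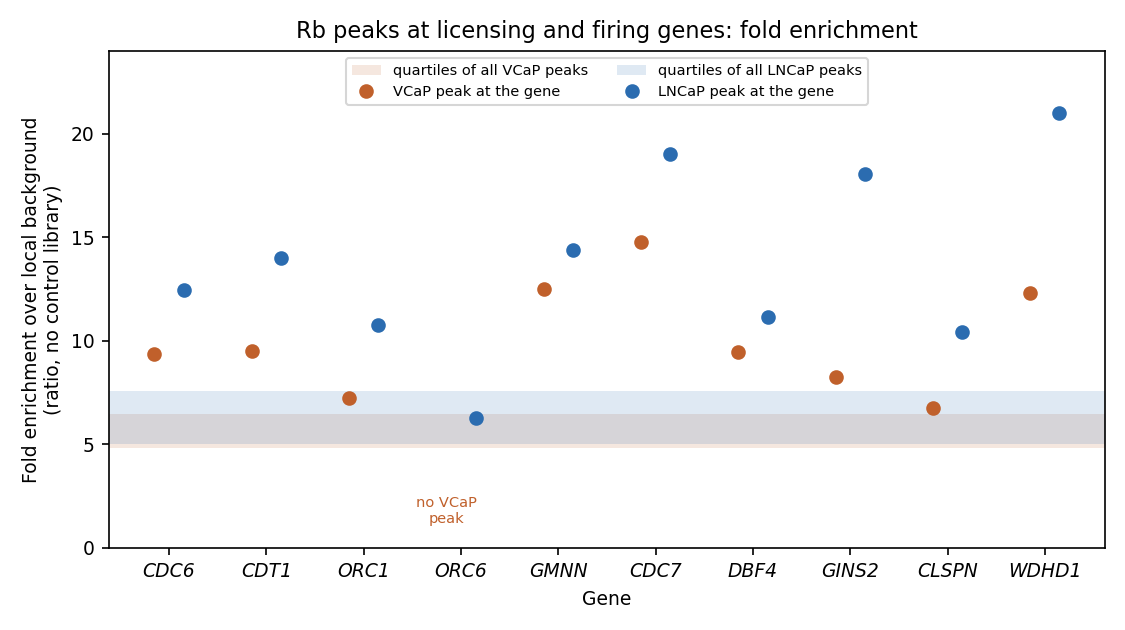
Fold enrichment over the local background of the same library (ratio) for the peak at each gene, in VCaP and LNCaP, with bands for the quartiles of all peaks in each list. Every gene with a pair has the higher point in LNCaP, an order that turns at CDT1 without the 1 that the caller adds to both terms, and the LNCaP peak of ORC6, at 6.25, lies inside the LNCaP band.

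Between CDC6 and ORC1, which both take part in loading the helicase, CDC6 had the higher fold and pileup in both lines. Coordinates given here are those of the VCaP peak in hg19. At CDC6 (chr17:38443846-38444292) the summit had 33 tags in VCaP and 42 in LNCaP, with folds of 9.36 and 12.4, ranks 415 of 9393 and 520 of 21955 on chromosomes 1 to 22 and X. At ORC1 (chr1:52869678-52870331) there were 20 and 32 tags, with folds of 7.21 and 10.7. The LNCaP fold was higher than the VCaP fold at both genes, by 1.33 times at CDC6 and 1.49 times at ORC1.

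CDT1 had a low pileup in VCaP and a high one in LNCaP. At CDT1 (chr16:88869841-88870357) the summit had 16 tags in VCaP, percentile 70.1 of the list by pileup, and 70 tags in LNCaP, percentile 99.7. The folds were 9.51 and 14.0, a ratio of 1.47, and percentiles 95.9 and 98.8 by fold. The caller adds 1 to pileup and to background before it divides, and the VCaP background at CDT1 was 0.788 tags against 4.07 in LNCaP. Without the added 1 the order at CDT1 turned, with 20.3 in VCaP and 17.2 in LNCaP, a ratio of 0.846. At GMNN (chr6:24775223-24775792), which encodes the inhibitor of CDT1, the order of tags was the opposite, with 62 in VCaP and 49 in LNCaP. GMNN was the only gene of the group with more tags at the summit in VCaP, from the deeper library, and its folds of 12.5 and 14.4 were the closest between the lines, with a ratio of 1.15. Without the added 1 the ratio at GMNN was 1.29, and those of CDT1, DBF4 (1.24) and CDC7 (1.25) lay closer to 1.

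Both subunits of the firing kinase had peaks in both lines, with CDC7 the stronger. CDC7 (chr1:91966180-91966911) had 65 tags in VCaP and 95 in LNCaP, with folds of 14.8 and 19.0, ranks 51 and 25. It had the highest pileup of the group in both libraries. DBF4 (chr7:87505242-87505888) had 34 and 36 tags and folds of 9.46 and 11.2, a ratio of 1.18.

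Among the genes of the active helicase and fork, WDHD1 had the highest fold in both lines, and in LNCaP the highest of the whole group. WDHD1 (chr14:55493610-55494001) had 37 tags in VCaP and 60 in LNCaP, with folds of 12.3 and 21.0, ranks 133 and 9. CLSPN (chr1:36235150-36235756) had 19 and 48 tags and folds of 6.76 and 10.4. GINS2 (chr16:85722392-85722755) had 13 tags in VCaP, which is the median of that list, and 67 in LNCaP. Its folds were 8.23 and 18.0, a ratio of 2.19. This ratio is an upper limit, because the VCaP background was the genome mean of 0.701 tags and the local one may have been lower, and without the added 1 it was 1.30, against 1.78 at WDHD1. The GINS2 peak in VCaP was also the shortest of the group, at 364 bp.

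ORC6 was the gene without a VCaP peak and had the weakest LNCaP peak of the group. The LNCaP peak (chr16:46722902-46723822) had 17 tags at the summit and a fold of 6.25, rank 9691 of 21955, and was 921 bp long. The nearest VCaP summit was 68.5 kb from the start. Of the 5331 LNCaP peaks with a fold within 10% of that of ORC6, 23.5% (exact interval 22.4 to 24.6) were overlapped by a VCaP peak, and of the 193 of these on chromosome 16, 14.5% (9.86 to 20.3). An LNCaP peak of this fold therefore lacked a VCaP partner in most cases. The lowest pileup of any VCaP peak on chromosome 16 was 7 tags, and signal below the limit of the peak caller at ORC6 would not be in the list.

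Per 1000000 tags of the library, all 9 genes with a pair had more tags over the summit in LNCaP. The ratio of LNCaP to VCaP had a median of 3.79 and its counting interval lay above 1 at all 9 genes, but it did so at 82.2% of all overlapping pairs, whose median ratio was 3.35 (quartiles 2.51 and 4.37). The fold was the higher in LNCaP at 9 of 9 genes and at 80.8% of all pairs, but without the 1 that the caller adds to pileup and background the counts were 8 of 9, with CDT1 turned, and 76.7%. The median fold ratio was 1.47 at the genes, ranging from 1.15 to 2.19, and 1.32 over all pairs (quartiles 1.07 and 1.62). Without the added 1 the median ratio was 1.30 at the genes and 1.34 over all pairs. The higher median at the genes was not seen without the added 1. With the added 1, the median at the genes was 1.33 when those on chromosome 16 were left out. The direction seen at the genes was thus also the direction of most pairs in the lists.

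**Figure D3:**
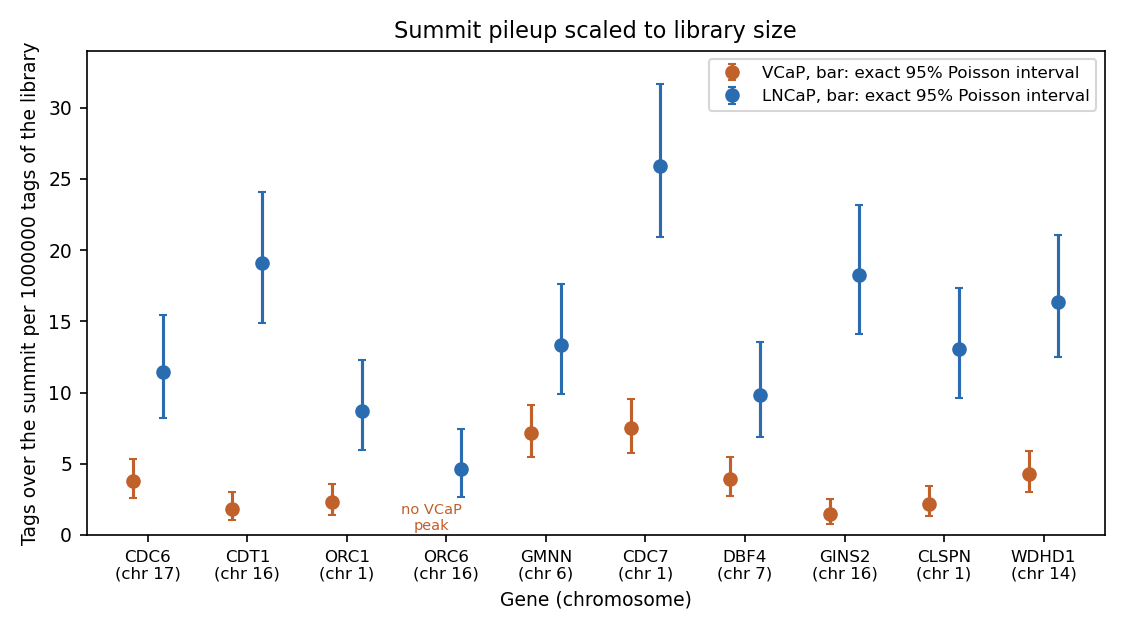
Tags over the summit per 1000000 tags of the library, by gene and line, with exact 95% Poisson intervals (bars; counting error only). The LNCaP point is above the VCaP point at every gene with a pair, and the gap is widest in ratio at CDT1 and GINS2 on chromosome 16.

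The order of the genes by tags per 1000000 was not the same in the libraries. In LNCaP it ran from CDC7 (25.9 tags per 1000000, interval 20.9 to 31.6) through CDT1, GINS2, WDHD1, GMNN, CLSPN, CDC6, DBF4 and ORC1 to ORC6 (4.63, 2.70 to 7.41). In VCaP it ran from CDC7 (7.48, 5.77 to 9.53) through GMNN, WDHD1, DBF4, CDC6, ORC1, CLSPN and CDT1 to GINS2 (1.496, 0.796 to 2.56). Of neighbours in these orders, GMNN and WDHD1 in VCaP had a ratio of tags of 1.68 (exact conditional interval 1.10 to 2.59). For ORC1 and ORC6 in LNCaP the ratio was 1.88 (1.01 to 3.61). For the other 7 pairs of neighbours in VCaP and the other 8 in LNCaP the interval of the ratio held 1. The pairs were formed by sorting on the same tags, so every ratio was at least 1. The intervals were not adjusted for the number of pairs. CDT1 and GINS2 came right after CDC7 in LNCaP and were the last 2 in VCaP. Across the 9 genes Spearman's rho between the lines was 0.07 for tags per 1000000 and 0.75 for fold enrichment, as a description over peaks that share their library and its depth. CDT1 and GINS2 changed place the most between the orders by tags, and rho without them was not computed.

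The largest ratios between the libraries fell on chromosome 16. Tags per 1000000 were 10.4 times higher in LNCaP at CDT1 (interval 5.95 to 19.1) and 12.2 times higher at GINS2 (6.67 to 24.1), with 1.84 against 19.1 tags per 1000000 at CDT1 and 1.496 against 18.2 at GINS2. At the 7 genes with a pair on other chromosomes the ratio ranged from 1.87 at GMNN (1.26 to 2.77) to 5.98 at CLSPN (3.45 to 10.8). The intervals of CDT1 and GINS2 overlapped those of CLSPN and ORC1 and not those of CDC6, GMNN, CDC7, DBF4 or WDHD1. The ratio was high on chromosome 16 in general, with a median of 4.73 over its 151 overlapping pairs against 3.34 over the 6537 pairs elsewhere. Within chromosome 16, CDT1 still had a higher ratio of tags per 1000000 than 95.4% of pairs and GINS2 than 99.3%. Relative to local tags, without the added 1, pairs on chromosome 16 had a median ratio of 0.947 (quartiles 0.731 and 1.22). Elsewhere this median was 1.34. By this measure CDT1, at 0.846, lay within the quartiles of chromosome 16, and GINS2 had 1.30, an upper limit.

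**Figure D4:**
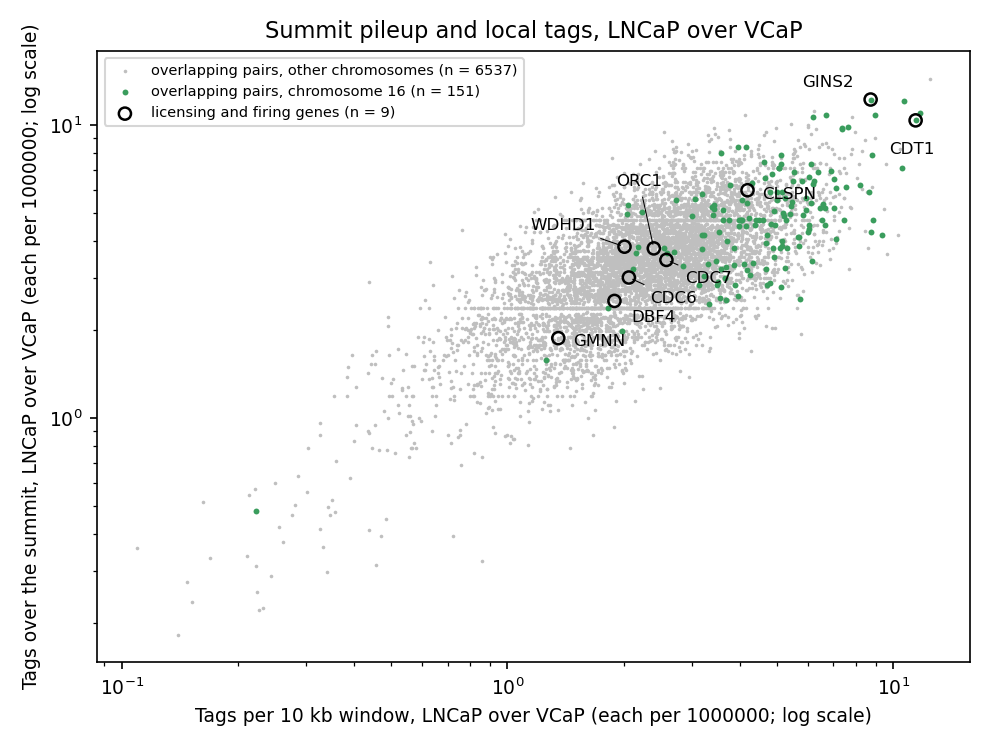
LNCaP over VCaP ratio of tags at the summit against the same ratio for tags in the 10 kb window, each per 1000000 tags (log scales), for all overlapping pairs (grey), those of chromosome 16 (green) and the 9 genes (circles). CDT1 and GINS2 lie at the upper right with ratios above 8 on both axes (the window ratio of GINS2 is a lower limit), and the other genes lie within the cloud of pairs.

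Tags in the 10 kb window around the summit, computed back from the fold and the pileup, moved with these ratios. At CDT1 the window held 35 tags in VCaP and 169 in LNCaP, or 4.03 and 46.0 per 1000000, a ratio of 11.4. At GINS2 the VCaP background was the genome mean, so the window held at most about 31.2 tags there, or 3.58 per 1000000, against 115 tags or 31.3 per 1000000 in LNCaP, a ratio of at least 8.74. At the other 7 genes with a pair the window ratio ranged from 1.35 at GMNN to 4.19 at CLSPN, and over all pairs its median was 2.37, against 4.79 on chromosome 16. The window includes the tags of the peak itself. Without those over the summit, the ratio was 12.3 at CDT1, 3.69 at CLSPN and 1.08 at GMNN. At CDT1 the window ratio thus exceeded the ratio of 10.4 at the summit, and relative to local tags without the added 1 the LNCaP peak was not the higher. The part of the local tags in the ratios at the summit was not tested.

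WDHD1 showed the other pattern. Its tags per 1000000 were 3.84 times higher at the summit in LNCaP (2.51 to 5.95), but the rest of the window, without the tags over the summit, held 6.44 per 1000000 in VCaP and 5.18 in LNCaP, a ratio of 0.80. The LNCaP fold of WDHD1 was 1.71 times that of VCaP, a ratio above that of 80.6% of all pairs. Without the added 1 the ratio at WDHD1 was 1.78, higher than at the other 8 genes with a pair and above 77.7% of all pairs.

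Other peaks near these genes were counted within 50 kb of the start, and the VCaP count depended on that limit. At CDC6, GMNN and DBF4 the nearest other VCaP summit lay just past it, 53.6, 54.3 and 58.2 kb from the summit of the gene's peak. No other VCaP summit lay within 50 kb of the start at 7 of the 9 genes, against 50.3% of all VCaP peaks counted from their summit, and no other LNCaP summit at 3 of the 10 (ORC6, GMNN and CDC7), against 29.8%. Within 10 kb of the start there was no second VCaP peak at any gene, and a second LNCaP peak at CDT1 and WDHD1. That of CDT1 (chr16:88878396-88878920) lay 8500 bp downstream, with 29 tags and a fold of 6.00.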

How the data were processed

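The authors ran MACS 2.1.0.20140616 on each library separately and gave it no control, per the file headers. The q-value limit was 0.05, 1 tag was kept per position, local background came from 10000 bp, and fragments were modelled at 225 bp (VCaP) and 241 bp (LNCaP). The build hg19, MACS2 and HOMER are named in the submitters' processing notes; the aligner is not given in the sources used here. Pileup, as deposited, is a signal: the tags over the summit, not scaled to depth. The deposited fold enrichment is a ratio of pileup plus 1 to local background plus 1. The deposited −log10 p and −log10 q values come from the same caller. The deposited peak lengths are in bp.

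From these files, local background was computed back from fold and pileup, tags were scaled to 1000000 tags of the library, and ranks and overlaps (at least 1 bp) were taken on chromosomes 1 to 22 and X. Python 3.11.15 with scipy 1.17.1 was used, and the overlap, motif and interval code was tested on simulated data. The members, gene lists and rules were chosen with earlier results of these data known; all 10 members are named. Other genes of the pathway, and sequence under the peaks, were not analysed here, since no hg19 annotation or genome was used. Promoter sequences are RefSeq's, GRCh38.p14, a build other than that of the peaks, and the motif search in them replaced a planned search around the summits. No test was made, because each line has 1 library.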

Additional observations from a re-analysis of the deposited data

How the results depend on the processing

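Counts of genes with a peak, and with overlapping peaks in both lines, stayed within 1.5 times under limits of 1 kb or 10 kb, −log10 q of at least 5, a fold of at least 5, lists of equal length (9393 peaks), reciprocal overlap of 50% and summits within 200 bp; ORC6 left the LNCaP count in lists of equal length. With a fold of at least 10 the VCaP count fell from 9 to 3. The median percentile of the genes was 95.8 by fold and 95.6 by pileup in VCaP, and 98.2 and 99.0 in LNCaP. The median LNCaP over VCaP ratio was 1.47 by fold, 3.79 by pileup per 1000000 tags, 1.30 by fold without the added 1 (chosen after seeing the data, with CDT1 turned to 0.846), 1.33 by fold without the genes on chromosome 16, and 1.40 to 1.48 without 1 gene at a time; by pileup without chromosome 16 it was 3.46, a setting chosen after seeing the data. An 8-letter E2F word was present at 6 genes, and a 7-letter word at 8; before the start alone, a choice made after seeing the data, the counts were 4 and 5. The searches around the summits and the other genes of the pathway were not run. No paired analysis was possible because each line has 1 library. At 13 to 20 tags, as at GINS2, CDT1, CLSPN and ORC1 in VCaP and ORC6 in LNCaP, counting error limits what a pileup can show.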
